A study of Sus scrofa with 8 samples.

Results

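Basement membrane proteins and integrins were taken from a gene expression table of pig longissimus dorsi, the long muscle of the back, as the genes named for laminin chains, collagen IV chains, nidogens, perlecan or integrin subunits. A total of 47 of the 23235 genes in the table carried such a name, and 33 of them reached a mean of at least 0.5 FPKM (fragments per kilobase of gene, scaled to library size) over the 8 libraries. The animals were Duroc x Landrace x Yorkshire piglets weaned at 28 days of age and kept on the same basal diet. In the melatonin group, piglets were gavaged each morning for 23 days, after 5 days of adaptation, with melatonin at 5 mg per kg body weight in 10 mL of sterile saline. In the control group, piglets received the same volume of saline for the same time. Each group had 6 piglets, and 4 libraries of each are analysed here, each taken to be a separate piglet. The labels give only a replicate number, so p-values measure the spread between these libraries.

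The basement membrane is the thin sheet of matrix that wraps every muscle fibre, capillary and nerve. It is built from a laminin network held at the cell surface and a collagen IV network, which nidogens and the proteoglycan perlecan tie together. Cells grip it through integrins, pairs of an alpha and a beta subunit that span the membrane and connect to the actin cytoskeleton. In muscle, the laminin chain LAMA2 and the integrin pair of ITGA7 and ITGB1 are central to this anchorage, and inherited loss of LAMA2 or ITGA7 causes muscular dystrophy or myopathy in humans.

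The 33 genes were 7 laminin chains, 3 collagen IV chains, the 2 nidogens with perlecan, 10 integrin alphas and 7 integrin betas, plus 3 genes whose symbols begin in the same way. These 3 are ITGB1BP1 and ITGB1BP2, which encode intracellular proteins that bind the integrin beta tail, and ITGBL1, which encodes a secreted protein with integrin-like repeats. The 14 matches under 0.5 FPKM were LAMA1, LAMA3, LAMB4, LAMC3, COL4A3, COL4A4, COL4A6, ITGA2, ITGA3, ITGA4, ITGA8, ITGAE, ITGAM and ITGB8. ITGB7 and LAMB3 lay just inside this floor, at means of 0.518 and 0.562 FPKM, and ITGAM and ITGB8 just outside it, at 0.478 and 0.446 FPKM. LAMA2 was not matched, because the table gives this gene its Ensembl identifier in place of a symbol (ENSSSCG00000033894). The table's description column names it, and its values are given below beside the others.

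Total counts per library ran from 53471667 to 60629098. In both groups they were lower in replicates 1 and 3 than in replicates 2 and 4. Muscle fibre markers were at high levels everywhere, with ACTA1, the skeletal muscle actin, between 49047 and 74673 FPKM. The summed level of 6 muscle fibre markers was 82461, 100361, 77452 and 98533 FPKM in melatonin replicates 1 to 4. In controls it was 94454 to 109383 FPKM, so melatonin replicates 1 and 3 were the lowest libraries in this sum. Melatonin replicates 1 and 3 stood apart from the other 6 libraries in the summed levels of tendon and fibroblast markers. The summed level of 6 tendon markers was 705, 9.64, 210.0 and 7.08 FPKM in melatonin replicates 1 to 4, against 5.57 to 8.91 FPKM in controls. The summed level of 8 fibroblast markers was 8547, 679, 2566 and 694 FPKM in melatonin replicates 1 to 4, against 504 to 979.8 FPKM in controls. COL1A1 and COL1A2 were the largest parts of the fibroblast sum, at 3457 and 3550 FPKM in melatonin replicate 1 and 913 and 908 FPKM in replicate 3. The fibroblast markers COL3A1, LUM and THY1 were lower in melatonin replicate 3 than in control replicate 1. The summed level of 5 adipocyte markers was 219, 73.1, 194 and 13.7 FPKM in melatonin replicates 1 to 4, against 21.8 to 126 FPKM in controls. Melatonin replicates 1 and 3 were highest in this sum but less set apart, since control replicate 3 reached 126 FPKM. None of these markers was at 0 in every library. Genes of the 33 for which melatonin replicates 1 and 3 were the highest in scaled counts are therefore given with and without this pair. The 2 libraries also had the highest TMM scaling factors (1.20 and 1.19, against 0.846 to 1.02 in the other 6). FPKM values carry no such scaling, so log2 fold changes from the count test lie below those that group means of FPKM would give.

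**Figure D1:**
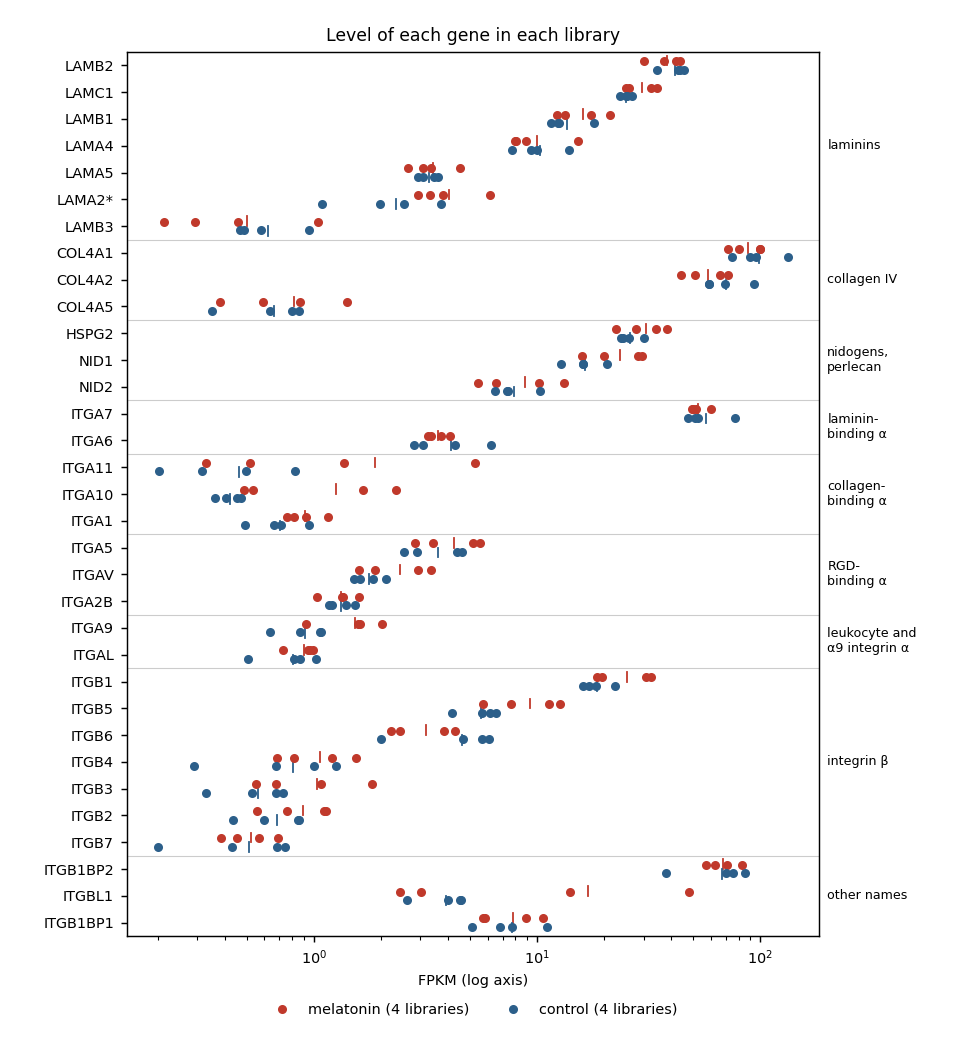
FPKM on a log axis for 32 of the 33 genes and LAMA2 (asterisk, outside the naming rule) in the 4 melatonin (red) and 4 control (blue) libraries, with a tick at each group mean. COL4A1, at a mean of 93.1 FPKM, is the highest, and ITGA10 alone has all melatonin points above all control points.

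No gene of the 33 passed the adjusted test between melatonin and control muscle. In edgeR's quasi-likelihood test, Benjamini-Hochberg adjustment over 11530 genes left 0 of 33 and 0 of all genes under 0.05, a background of 0.0% called. DESeq2 called 81 genes, a background of 0.703%, and 0 of the 33. At an unadjusted p under 0.05, 6 of the 33 genes were higher after melatonin, and 0 were lower. The same threshold was met by 6.7% of all genes in the higher direction and by 3.82% in the lower. All 6 were integrin subunits or the integrin-like ITGBL1, and none was a laminin, collagen IV, nidogen or perlecan gene. NID1 and ITGB1, both higher, and COL4A2, lower, lay just outside the threshold, at edgeR unadjusted p = 0.0512, 0.0537 and 0.0565. Without melatonin replicates 1 and 3 the count of 6 dropped to 1, ITGA9, and 0 were lower, while 2.72% of all genes were higher and 2.17% lower at that threshold. DESeq2 at the unadjusted threshold had 8 of the 33 higher, the nidogen NID1 among them, and 1 lower, COL4A2, beside 7.75% and 4.64% of all genes. The median log2 fold change of the 33 genes was 0.12 with all libraries and 0.04 without these 2, beside 0.00 and -0.02 over all genes tested.

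**Figure D2:**
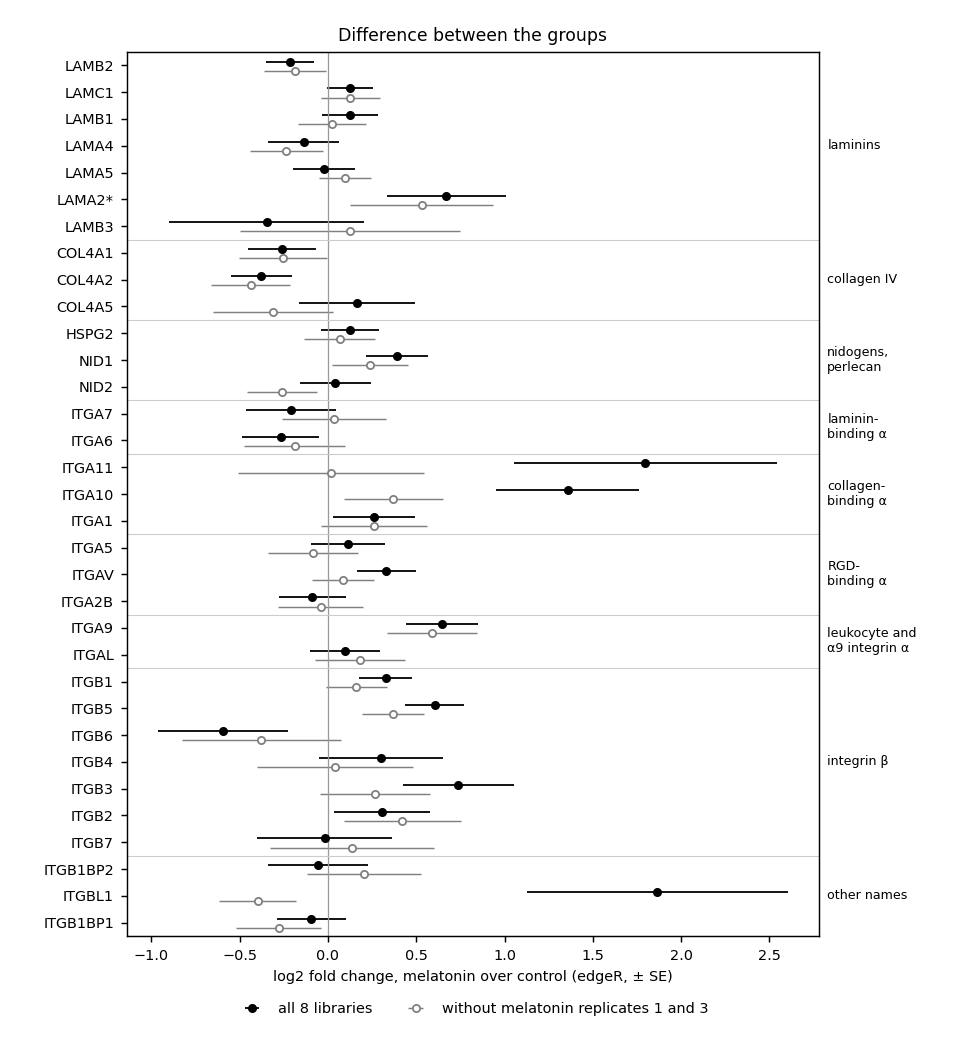
Log2 fold change of melatonin over control with its standard error from edgeR for 32 of the 33 genes and LAMA2, with all 8 libraries (filled) and without melatonin replicates 1 and 3 (open). ITGA11, ITGA10 and ITGBL1 have the largest values with all libraries, 1.80, 1.36 and 1.86, and lie at 0.02, 0.37 and -0.40 without the pair.

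Among laminin chains, which assemble as an alpha, a beta and a gamma chain, LAMB2, LAMC1 and LAMB1 were the most abundant. LAMB2, the beta chain enriched at nerve-muscle synapses and also found around adult fibres (chromosome 13, 31738286 to 31750833), measured 43.9, 30.2, 41.7 and 37.1 FPKM in melatonin replicates 1 to 4, against 45.6, 34.4, 43.7 and 42.97 FPKM in control replicates 1 to 4. The groups overlapped, and the log2 fold change was -0.22 ± 0.13 (SE, edgeR adjusted p = 0.571). LAMC1, the gamma chain that most laminins share (chromosome 9, 124283224 to 124405964), measured 32.5, 25.7, 34.6 and 25.1 FPKM after melatonin, against 25.3, 24.96, 23.4 and 26.6 FPKM in controls. Melatonin replicates 1 and 3 were the highest of the 8 libraries in FPKM, but with TMM scaling the log2 fold change was 0.13 ± 0.13 (edgeR adjusted p = 0.731). LAMB1 (chromosome 9, 107671152 to 107772269) measured 21.2, 13.3, 17.5 and 12.3 FPKM after melatonin, against 17.9, 11.6, 12.4 and 12.6 FPKM in controls. The groups overlapped, with control replicate 1 among the 3 highest libraries (log2 fold change 0.13 ± 0.16, edgeR adjusted p = 0.785). Its gene overlaps DLD, which runs on the opposite strand measured at 25.6 FPKM on average. The sources used here do not say whether counting used strand, so their reads cannot be told apart.

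LAMA4, a chain of capillary basement membranes, was the most abundant alpha chain, with 10.03 ± 3.51 FPKM after melatonin and 10.3 ± 2.65 FPKM in controls (SD, n = 4 each). Its log2 fold change was -0.14 ± 0.20, and melatonin replicate 1 and control replicate 1 were the highest libraries of their groups, at 15.3 and 13.9 FPKM. LAMA5, a chain of mature vessels and of synapses, averaged 3.40 ± 0.808 FPKM after melatonin and 3.26 ± 0.310 FPKM in controls. It overlaps ADRM1 on the opposite strand, at a mean of 19.5 FPKM. LAMB3, which belongs to a laminin of epithelia, stayed between 0.214 and 1.05 FPKM in every library. Its log2 fold change was -0.35 ± 0.55.

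LAMA2, the alpha chain of the muscle fibre laminin, measured 3.78, 2.92, 6.16 and 3.32 FPKM in melatonin replicates 1 to 4, against 1.97, 2.52, 1.09 and 3.71 FPKM in control replicates 1 to 4. Melatonin replicate 3 was the highest and control replicate 3 the lowest, and the groups overlapped through control replicate 4. The log2 fold change was 0.67 ± 0.33 with all libraries (edgeR adjusted p = 0.507) and 0.53 ± 0.41 without melatonin replicates 1 and 3. In every library its level was below that of LAMA4. The gene model in the table (chromosome 1, 33867259 to 34359698, reverse strand) stops 101.8 kb short of the 3′ end that RefSeq gives LAMA2 on the same Sscrofa11.1 assembly, so reads from that end are outside the model. How far this lowers its measured level was not tested.

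Collagen IV was made up almost wholly of COL4A1 and COL4A2, the chains of the network found in all basement membranes. COL4A1 (chromosome 11, 76858356 to 76942074, reverse strand) measured 99.98, 71.5, 99.4 and 80.7 FPKM after melatonin, against 133, 90.4, 95.8 and 74.4 FPKM in controls. The groups overlapped widely, with control replicate 1 the highest library and melatonin replicate 2 the lowest, and the log2 fold change was -0.26 ± 0.19 (edgeR adjusted p = 0.623). Replicates 1 and 3 of both groups lay at 95.8 to 133 FPKM for COL4A1, above replicates 2 and 4 at 71.5 to 90.4 FPKM. COL4A2 (chromosome 11, 76997516 to 77161614, forward strand), the neighbour of COL4A1, measured 71.4, 43.9, 65.8 and 51.2 FPKM after melatonin, against 93.4, 59.1, 69.2 and 58.9 FPKM in controls. COL4A2 FPKM too was higher in replicates 1 and 3 of both groups than in replicates 2 and 4. In TMM-scaled counts neither gene kept this split, with melatonin replicate 4 above melatonin replicate 3 for both. The log2 fold change of COL4A2 was -0.38 ± 0.17 (edgeR adjusted p = 0.482), the smallest p of any gene of the 33 with a negative value. It was -0.44 ± 0.23 without melatonin replicates 1 and 3. COL4A5, of the minor chains, averaged 0.813 ± 0.446 FPKM after melatonin and 0.661 ± 0.227 FPKM in controls. COL4A3, under the floor at a mean of 0.401 FPKM, measured 1.53, 0.271, 0.648 and 0.170 FPKM in melatonin replicates 1 to 4, against 0.0781 to 0.271 FPKM in controls.

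Of the linking proteins, perlecan was the most abundant. Perlecan, encoded by HSPG2 (chromosome 6, 79849698 to 79915092), measured 38.3, 22.5, 33.97 and 27.7 FPKM after melatonin, against 30.1, 25.8, 23.7 and 24.2 FPKM in controls (log2 fold change 0.12 ± 0.16). RefSeq extends HSPG2 by 43191 bp, and COL4A1 by 55335 bp, beyond the 5′ end of the gene models used here. How far this changes their measured levels was not tested. NID1 (chromosome 14, 55239577 to 55346937) measured 28.3, 19.98, 29.5 and 15.9 FPKM after melatonin, against 20.6, 15.99, 12.8 and 16.03 FPKM in controls. Melatonin replicates 1 and 3 were the highest and melatonin replicates 2 and 4 lay inside the control range. The log2 fold change of NID1 was 0.39 ± 0.18 (edgeR unadjusted p = 0.0512, adjusted p = 0.475), and 0.24 ± 0.21 without melatonin replicates 1 and 3. NID2, the second nidogen, averaged 8.87 ± 3.55 FPKM after melatonin and 7.86 ± 1.65 FPKM in controls, with a log2 fold change of 0.04 ± 0.20.

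Shares between related chains depend less on scaling, since both levels come from the same library, and 5 were compared by two-sided exact permutation over the 70 assignments of libraries, which allows no p below 0.0286. NID1 made up 72.9 ± 4.52% of nidogen FPKM after melatonin and 67.5 ± 3.16% in controls (exact p = 0.143). LAMB2 made up 70.6 ± 3.28% of LAMB1 and LAMB2 together after melatonin and 75.5 ± 2.77% in controls (exact p = 0.0857). COL4A1 made up 60.4 ± 1.55% of COL4A1 and COL4A2 after melatonin and 58.3 ± 1.91% in controls (exact p = 0.143). LAMA2 made up 23.1 ± 5.98% of LAMA2, LAMA4 and LAMA5 after melatonin and 14.8 ± 7.08% in controls (exact p = 0.171). ITGA7 made up 93.1 ± 1.03% of the laminin-binding alphas ITGA3, ITGA6 and ITGA7 after melatonin and 92.7 ± 3.00% in controls (exact p = 0.857). None passed after adjustment over the 5 shares, where the smallest adjusted exact permutation p was 0.214.

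Relative to COL4A2, HSPG2, LAMC1, LAMB1 and NID1 did not overlap between the groups, while NID2 and LAMB2 did. This ratio was chosen after the values were seen, so it is described and not tested, and its values share the denominator COL4A2. HSPG2 over COL4A2 was 0.536, 0.513, 0.516 and 0.541 in melatonin replicates 1 to 4, against 0.323, 0.436, 0.342 and 0.412 in control replicates 1 to 4. ITGB1 over COL4A2 was 0.451, 0.421, 0.466 and 0.383 after melatonin, against 0.240, 0.273, 0.264 and 0.290 in controls. NID1 over COL4A2 was 0.397, 0.455, 0.448 and 0.310 after melatonin, against 0.220, 0.271, 0.185 and 0.272 in controls. In all, 11 of 32 genes had a ratio to COL4A2 that was higher in all 4 melatonin libraries than in all 4 controls, among them LAMB1, LAMC1, ITGAV, ITGA1 and ITGB5. Over all genes tested, 11.4% had such a ratio.

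**Figure D3:**
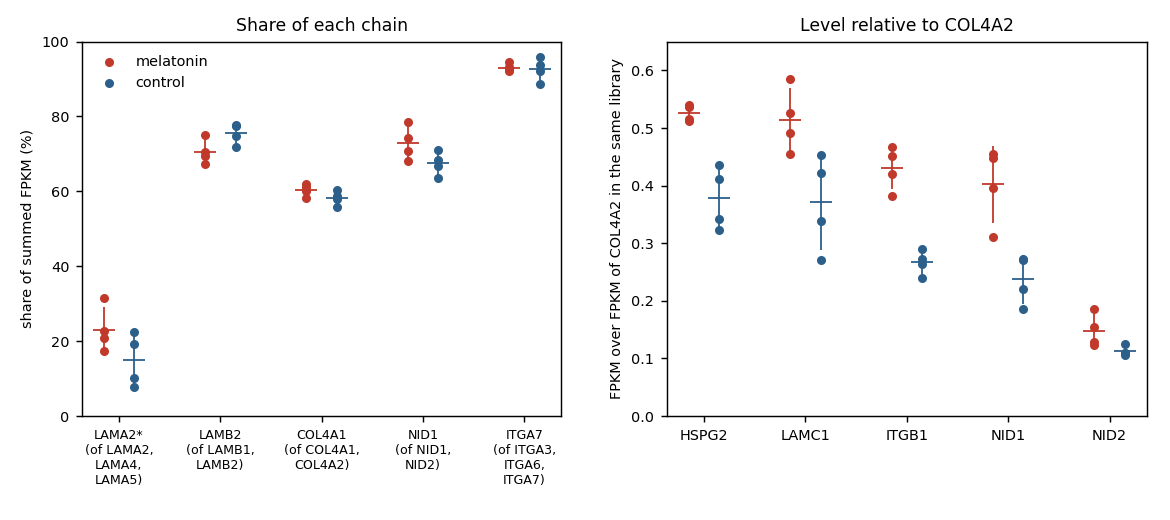
Left, share of summed FPKM (%) taken by 5 chains among related chains, by library, with mean and SD. Right, FPKM of 5 genes over the FPKM of COL4A2 in the same library, with mean and SD, where HSPG2 lies between 0.513 and 0.541 in melatonin libraries (red) and between 0.323 and 0.436 in controls (blue).

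Integrins that bind laminin were dominated by ITGA7, the alpha subunit of mature muscle fibres (chromosome 5, 21126571 to 21148776). It measured 49.2, 49.8, 51.4 and 60.1 FPKM after melatonin, against 51.1, 77.02, 52.5 and 47.5 FPKM in controls. Control replicate 2 was the highest library, and the other 7 overlapped. The log2 fold change was -0.21 ± 0.25 (edgeR adjusted p = 0.778), and it turned to 0.03 without melatonin replicates 1 and 3 and to 0.07 without control replicate 2. ITGA7 overlaps BLOC1S1 on the opposite strand, at a mean of 29.5 FPKM. ITGA6, which binds laminin in vessels and in satellite cells, averaged 3.60 ± 0.382 FPKM after melatonin and 4.10 ± 1.55 FPKM in controls (log2 fold change -0.27 ± 0.22). Control replicate 1 was the highest library for ITGA6, at 6.22 FPKM, and the log2 fold change was -0.029 without it. ITGB1, the beta partner of ITGA7 and of most other alphas (chromosome 10, 56078396 to 56173326), measured 32.2, 18.5, 30.7 and 19.6 FPKM after melatonin, against 22.4, 16.1, 18.3 and 17.1 FPKM in controls. Melatonin replicates 1 and 3 were the highest, melatonin replicates 2 and 4 lay inside the control range, and the log2 fold change was 0.33 ± 0.15 (edgeR unadjusted p = 0.0537, adjusted p = 0.477). Without melatonin replicates 1 and 3 it was 0.16 ± 0.17 for ITGB1. ITGA7 exceeded ITGB1 in every library, by 1.53 to 3.07 times after melatonin and by 2.28 to 4.78 times in controls.

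Of the collagen-binding alphas, ITGA11 and ITGA10 were highest in melatonin replicates 1 and 3. ITGA11, a receptor for fibrillar collagen on mesenchymal cells (chromosome 1, 166186613 to 166310800), measured 5.27, 0.328, 1.36 and 0.518 FPKM after melatonin, against 0.497, 0.315, 0.201 and 0.824 FPKM in controls. Its log2 fold change of 1.80 ± 0.74 (edgeR unadjusted p = 0.0367, adjusted p = 0.459) was 0.02 ± 0.53 without melatonin replicates 1 and 3, and it was 0.58 without melatonin replicate 1 alone. ITGA10, a collagen receptor first known from cartilage (chromosome 4, 99423117 to 99440749), measured 2.34, 0.532, 1.66 and 0.486 FPKM after melatonin, against 0.361, 0.452, 0.402 and 0.472 FPKM in controls. In FPKM, all 4 melatonin libraries lay above all 4 controls, which was true of 1 of the 33 genes and of 1.3% of all genes tested. Of the 33 genes, 0 had all melatonin libraries below all controls, against 1.08% of all genes. The log2 fold change of ITGA10 was 1.36 ± 0.41 (edgeR unadjusted p = 0.00770, adjusted p = 0.432, DESeq2 adjusted p = 0.0774), and 0.37 ± 0.28 without melatonin replicates 1 and 3. ITGA1, a collagen IV receptor of vessel cells, averaged 0.912 ± 0.176 FPKM after melatonin and 0.705 ± 0.191 FPKM in controls, and shares its strand and position with PELO at a mean of 1.90 FPKM.

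ITGBL1 followed the same libraries (chromosome 11, 70042232 to 70246968). It measured 47.9, 3.02, 13.996 and 2.42 FPKM after melatonin, against 3.99, 2.61, 4.55 and 4.50 FPKM in controls. Melatonin replicate 4 lay below every control and melatonin replicate 2 inside their range, and the log2 fold change of 1.86 ± 0.74 (edgeR unadjusted p = 0.0306, adjusted p = 0.448) turned to -0.40 ± 0.22 without melatonin replicates 1 and 3. Melatonin replicates 1 and 3 were the highest libraries for 6 of 6 tendon markers, 5 of 8 fibroblast markers and 3 of 5 adipocyte markers. They were also highest for 4 of 8 markers of macrophages and other myeloid cells. These marker counts are of FPKM. In TMM-scaled counts, a different measure, the pair was highest for 10.4% of all genes tested, and the share in FPKM was not taken. For the fibroblast markers COL3A1, LUM and THY1, control replicate 1 lay above melatonin replicate 3. Of the 6 tendon markers 5 were tested, and 5 of 5 were higher at an unadjusted p under 0.05, with a median log2 fold change of 4.73. Of the 8 fibroblast markers, 4 were higher and 0 lower (median 0.62). Both counts of higher markers were 0 once melatonin replicates 1 and 3 were left out. The pair had been singled out by these same markers, so this drop is a description and not a test. Over all genes, 6.7% were higher with all libraries and 2.72% without the pair. Of 4 adipocyte markers tested, 0 were higher or lower, with a median log2 fold change of 1.61 that was 0.32 without the pair. The part that tendon, fibroblast or adipocyte RNA has in the values of ITGA10, ITGA11 and ITGBL1 was not tested. In bulk tissue, more cells of a type and more RNA per cell cannot be told apart.

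**Figure D4:**
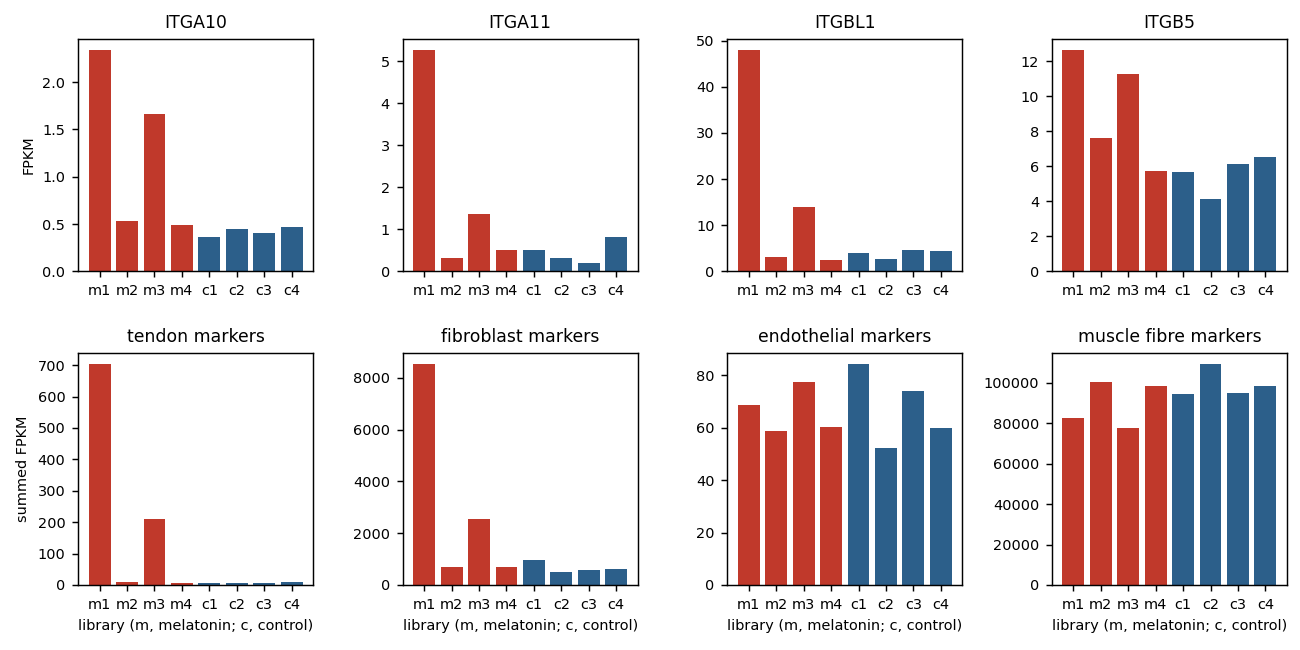
FPKM of ITGA10, ITGA11, ITGBL1 and ITGB5 (top) and summed FPKM of tendon, fibroblast, endothelial and muscle fibre markers (bottom) in melatonin (red, m1 to m4) and control (blue, c1 to c4) libraries. Tendon markers reach 705 and 210.0 FPKM in m1 and m3, while endothelial markers lie between 58.7 and 77.5 FPKM after melatonin and between 52.3 and 84.4 FPKM in controls.

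ITGB5, a beta subunit that pairs with ITGAV and binds vitronectin (chromosome 13, 135467798 to 135587473), had the smallest p of the 33 genes. It measured 12.6, 7.62, 11.3 and 5.73 FPKM after melatonin, against 5.67, 4.16, 6.13 and 6.53 FPKM in controls. In FPKM, melatonin replicates 1, 2 and 3 lay above every control and melatonin replicate 4 among them. In TMM-scaled counts (log2 CPM minus the control mean) melatonin replicate 4, at 0.209, lay above the highest control, at 0.165. The groups then did not overlap for ITGB5, and the share of all genes without overlap in scaled counts was not taken. The log2 fold change was 0.60 ± 0.17 (edgeR unadjusted p = 0.00463, adjusted p = 0.432), and 0.37 ± 0.18 without melatonin replicates 1 and 3. ITGA9, which pairs with ITGB1 and binds tenascin and osteopontin (chromosome 13, 22298770 to 22655704), measured 1.58, 1.61, 2.02 and 0.922 FPKM after melatonin, against 1.07, 0.637, 1.07 and 0.868 FPKM in controls. As for ITGB5 in FPKM, melatonin replicate 4 lay inside the control range and the other 3 above it. Its log2 fold change of 0.65 ± 0.20 (edgeR unadjusted p = 0.00952, adjusted p = 0.432) was 0.59 ± 0.25 without melatonin replicates 1 and 3, at an unadjusted edgeR p of 0.0470. ITGB3, the beta partner of ITGAV on vessels and of ITGA2B on platelets (chromosome 12, 16693514 to 16735127), measured 1.82, 0.551, 1.08 and 0.674 FPKM after melatonin, against 0.725, 0.327, 0.529 and 0.674 FPKM in controls. Its log2 fold change was 0.74 ± 0.32 (edgeR unadjusted p = 0.0418, adjusted p = 0.463), and 0.27 ± 0.31 without melatonin replicates 1 and 3.

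The remaining integrins overlapped between the groups. ITGA5, the fibronectin receptor alpha (chromosome 5, 19586746 to 19610362), was the most abundant of the alphas that recognise the RGD tripeptide. It measured 5.55, 2.83, 5.14 and 3.42 FPKM after melatonin, against 4.38, 2.90, 4.62 and 2.52 FPKM in controls (log2 fold change 0.11 ± 0.21). ITGAV, which pairs with several betas, averaged 2.44 ± 0.836 FPKM after melatonin and 1.77 ± 0.264 FPKM in controls (log2 fold change 0.33 ± 0.17, edgeR adjusted p = 0.513), and the log2 fold change of ITGAV was 0.09 ± 0.17 without melatonin replicates 1 and 3. ITGB6, a partner of ITGAV known mainly from epithelia, had the lowest log2 fold change of the 33 genes, at -0.59 ± 0.37 (edgeR adjusted p = 0.568). It averaged 3.19 ± 1.01 FPKM after melatonin and 4.59 ± 1.83 FPKM in controls, where control replicate 4 at 1.99 FPKM was the lowest of all libraries. ITGB4, which pairs with ITGA6, averaged 1.06 ± 0.394 FPKM after melatonin and 0.805 ± 0.416 FPKM in controls.

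Integrins of blood cells were low. ITGAL and ITGB2, which form a leukocyte adhesion receptor, averaged 0.905 ± 0.120 and 0.890 ± 0.281 FPKM after melatonin and 0.804 ± 0.218 and 0.683 ± 0.205 FPKM in controls. ITGB7, a lymphocyte beta subunit, averaged 0.522 ± 0.135 FPKM after melatonin and 0.514 ± 0.249 FPKM in controls. ITGA2B, the platelet alpha subunit, averaged 1.33 ± 0.230 FPKM after melatonin and 1.32 ± 0.168 FPKM in controls. The log2 fold changes of these 4 genes lay between -0.09 and 0.31. Summed markers of macrophages and other myeloid cells were 19.8, 13.8, 20.3 and 6.33 FPKM after melatonin, against 5.65 to 12.7 FPKM in controls. Their part in the leukocyte integrin values was not tested.

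Inside the fibre, ITGB1BP2, which encodes the muscle protein melusin (chromosome X, 57316471 to 57325096), measured 57.3, 82.6, 70.8 and 62.99 FPKM after melatonin, against 85.8, 75.5, 70.6 and 37.7 FPKM in controls. Control replicate 4 was the lowest library, and the log2 fold change was -0.06 ± 0.28. ITGB1BP1 averaged 7.78 ± 2.39 FPKM after melatonin and 7.69 ± 2.50 FPKM in controls.

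The spread between libraries differed among the genes. Within controls the coefficient of variation was 5.28% for LAMC1, 9.49% for LAMA5, 11.3% for HSPG2 and 11.9% for LAMB2, the network genes with the lowest values. It was 25.0% for COL4A1, 51.6% for ITGB4 and 59.2% for ITGA11. Within the melatonin group it reached 127% for ITGBL1 and 124% for ITGA11. The 2 highest libraries in TMM-scaled counts were melatonin replicates 1 and 3 for 8 of the 33 genes: ITGA10, ITGA11, ITGAV, ITGB1, ITGB3, ITGB5, ITGBL1 and NID1. The same pair was highest for 10.4% of all genes tested.

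**Figure D5:**
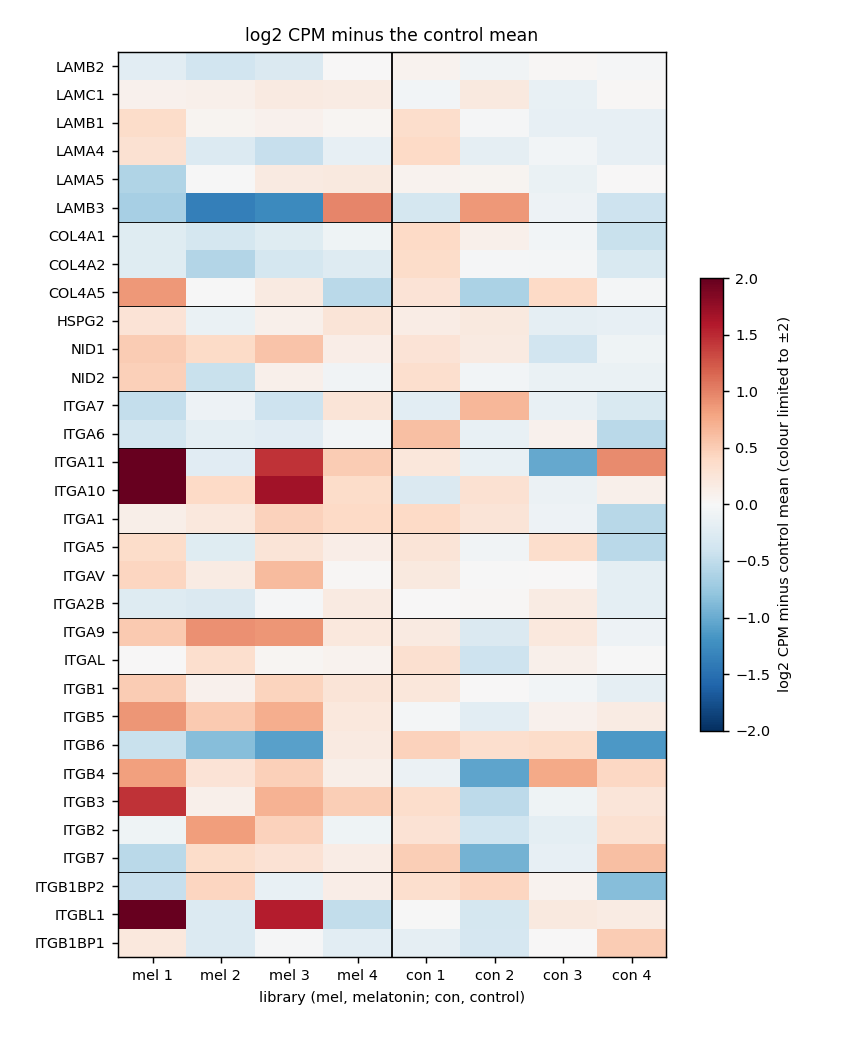
TMM-scaled log2 CPM of 32 of the 33 genes in each library minus the mean of the 4 controls (colour, limited to ±2), with melatonin libraries left of controls. The darkest cells are ITGA10, ITGA11 and ITGBL1 in melatonin replicates 1 and 3, and LAMC1 and HSPG2 stay pale throughout.

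Genes that work beside this network were followed as lists, described here by counts at an unadjusted p under 0.05. The share of all genes higher or lower at that threshold was 6.7% and 3.82%. Among RGD-bearing and provisional matrix ligands, 8 of 13 genes were higher after melatonin and 0 lower, with a median log2 fold change of 1.46. NPNT, which encodes nephronectin, a ligand of ITGA8, had the smallest p. It measured 1.32, 1.73, 2.38 and 1.13 FPKM after melatonin, against 0.608, 0.882, 0.889 and 0.536 FPKM in controls, with no overlap (log2 fold change 1.04 ± 0.28, edgeR adjusted p = 0.432). Its value was 1.05 without melatonin replicates 1 and 3. ITGA8 itself, under the floor at a mean of 0.441 FPKM and so not tested, measured 0.750, 0.893, 1.02 and 0.215 FPKM after melatonin, against 0.203, 0.230, 0.0821 and 0.136 FPKM in controls. The matrix glycoproteins THBS4 and TNC were the next by p. THBS4 averaged 125 ± 129.5 FPKM after melatonin and 16.4 ± 5.72 FPKM in controls, and TNC averaged 3.87 ± 4.45 FPKM after melatonin and 0.279 ± 0.0819 FPKM in controls. Their log2 fold changes of 2.68 and 3.50 were 0.30 and -0.13 without melatonin replicates 1 and 3, and the list count was then 1 of 13.

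Other basement membrane proteins had 4 of 17 genes higher and 1 lower, and their median was 0.15. The 3 with the smallest p were TINAGL1 (3.83 ± 1.85 FPKM after melatonin and 2.05 ± 0.484 FPKM in controls), SPARC, a collagen-binding glycoprotein (1214 ± 1354 FPKM after melatonin and 382 ± 84.7 FPKM in controls), and the fibulin FBLN2 (11.9 ± 3.998 FPKM after melatonin and 7.91 ± 1.72 FPKM in controls). Without melatonin replicates 1 and 3 the counts were 0 and 0. Genes listed for collagen maturation, with MIA3, GORASP1 and TANGO6 beside enzymes and chaperones, had 3 of 12 higher and 0 lower (median 0.15). The 3 were P4HA1, PLOD3 and PLOD2, which hydroxylate proline and lysine residues. Their log2 fold changes were 1.46 ± 0.50, 0.65 ± 0.24 and 0.66 ± 0.25, and 0 of 12 met the threshold without melatonin replicates 1 and 3.

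Other laminin receptors of muscle, including the dystroglycan and sarcoglycan genes and the enzymes that glycosylate dystroglycan, had 0 of 16 higher and 1 lower, with a median of -0.17. The lower gene was POMGNT1, a glycosyltransferase that acts on dystroglycan, with 16.9 ± 2.90 FPKM after melatonin and 20.2 ± 3.13 FPKM in controls (log2 fold change -0.35 ± 0.14, edgeR adjusted p = 0.445). UTRN and SGCA, next by p, had log2 fold changes of 0.38 ± 0.18 and -0.37 ± 0.18. Proteins that join integrins to actin had 0 of 22 higher and 2 lower, with a median of -0.00. These were the adaptors BCAR1 (-0.52 ± 0.23) and PXN, or paxillin, which measured 20.9, 18.4, 19.0 and 21.4 FPKM after melatonin, against 24.4, 22.7, 22.7 and 27.5 FPKM in controls. PXN did not overlap between the groups in FPKM (log2 fold change -0.36 ± 0.16, edgeR adjusted p = 0.473). PARVB, an actin-linking partner of the kinase ILK, was next at -0.42 ± 0.22. Without melatonin replicates 1 and 3, 0 genes of either list met the threshold, and the medians were 0.07 and -0.10.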

How the data were processed

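RNA of 4 melatonin and 4 control libraries was measured in a table of whole-number counts and FPKM per gene, both deposited by the authors, per the file headers. FPKM values are proportional to the deposited counts within 0.234% in 3458 genes with large counts. Per the labels' protocols, poly(A)-selected RNA was used and the second strand was synthesised with dUTP. FastQC, StringTie, DESeq2 and Sscrofa11.1 are named in the submitters' processing notes. The aligner and the gene annotation are not given here by any source. All value columns were mapped to a library. No pair of libraries was a duplicate (smallest chi-square per degree of freedom 53.2).

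The count test was run in edgeR 4.0.16 under R 4.3.3 ( TMM scaling, legacy quasi-likelihood F test, no covariate) on the 11530 genes with a mean of at least 0.5 FPKM, with Benjamini-Hochberg adjustment over all of them; the common biological coefficient of variation was 29.8%. The standard error is the log2 fold change divided by the root of F. The fit was tested on simulated data. Alternatives used DESeq2 1.42.0, limma 3.58.1 on log2(FPKM + 1) and log2(FPKM + 0.1), other scalings and filters, the bias-adjusted test, a replicate block and left-out libraries. Shares and plots used Python 3.11.15, NumPy 2.4.6, pandas 2.3.3 and Matplotlib 3.10.9. Values in every library are given for genes at an unadjusted p under 0.05, the most abundant gene of each role and a fixed set of fibre basement membrane genes, and for each list the 3 genes with the smallest p are named. COL4A2, COL4A3, ITGA8 and the ratios to COL4A2 are described further because of their values. The members and lists were chosen with earlier results of these data known. Marker symbols missing from the table (MB, TTN, EGFL7, PF4, PPBP, GP1BA, HBA1 and S100B) were left out. Platelet markers could not be assessed, with 1 of 4 in the table. Sequences were not used here, and values of 1 of the 33 genes are not reported here.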

Additional observations from a re-analysis of the deposited data

Results flagged for a closer look

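Within a group of 4 libraries, 3 values stood far from the others, among 78 groups examined, and chance flags about 1 group in 20. LAMA4 in melatonin replicate 1 was 15.3 FPKM, against 7.95 to 8.88 FPKM in the other melatonin libraries. ITGAL in melatonin replicate 4 was 0.728 FPKM, against 0.943 to 0.987 FPKM in the other melatonin libraries. LAMB1 in control replicate 1 was 17.9 FPKM, against 11.6 to 12.6 FPKM in the other controls.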

How the results depend on the processing

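None of the 33 genes passed the adjusted threshold under any of the 18 alternatives. For 20 of the 33 the sign was the same in each alternative run. The count of 6 genes higher at an unadjusted p under 0.05 was 3 with limma at either pseudocount, 1 without melatonin replicates 1 and 3, and 3 to 8 when single libraries were left out. It was 3 without melatonin replicate 1, control replicate 2 or control replicate 3. The count of 0 lower genes was 1 with the bias-adjusted test and with DESeq2, and 0 to 3 when single libraries were left out, reaching 3 without control replicate 4 and 2 without melatonin replicate 4. Over all genes, DESeq2 called 81 in place of 0. Without melatonin replicates 1 and 3, genes meeting the unadjusted threshold numbered 0 higher and 0 lower among other basement membrane proteins, 0 lower among other laminin receptors, 0 lower among integrin-linked adhesion proteins, 1 higher among RGD and provisional matrix ligands and 0 higher in collagen IV maturation.

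Log2 fold changes of 13 of the 33 genes changed sign in places. ITGBL1, with the largest value of the 33 (1.86), was among them. Without melatonin replicates 1 and 3 they were 0.14 for ITGB7, -0.0839 for ITGA5, -0.26 for NID2, -0.40 for ITGBL1, -0.31 for COL4A5, 0.13 for LAMB3, 0.21 for ITGB1BP2, 0.10 for LAMA5 and 0.0338 for ITGA7. In limma at pseudocounts 1 and 0.1 they were 0.0193 and 0.10 for ITGB7, 0.0715 and 0.0734 for ITGB1BP2, 0.0184 and 0.021 for ITGB1BP1, and 0.032 and 0.0361 for LAMA5. With single libraries left out the ranges were -0.25 to 0.19 for ITGB7, -0.0396 to 0.23 for ITGA5, -0.31 to 0.0199 for LAMA4, -0.13 to 0.17 for NID2, -0.0228 to 0.21 for ITGAL, -0.14 to 0.35 for COL4A5, -1.19 to 0.0472 for LAMB3, -0.27 to 0.0823 for ITGB1BP2, -0.20 to 0.11 for ITGB1BP1, -0.11 to 0.13 for LAMA5 and -0.38 to 0.068 for ITGA7. The ITGA7 share difference of 0.375 percentage points ranged from -0.927 to 1.45. The cause of these changes was not tested. Same-numbered libraries had weak correlations of deviations (0.16, 0.07, 0.16 and -0.01, 2 of 4 highest with their own number). This does not settle whether libraries share a grouping. COL4A1, COL4A2, ITGA5 and ITGA6 FPKM were higher in replicates 1 and 3 of both groups than in replicates 2 and 4. Summed endothelial markers divided likewise in FPKM, at 68.8 to 84.4 against 52.3 to 60.3 FPKM. In TMM-scaled counts the split held for ITGA5 but not for COL4A1, COL4A2 or ITGA6. Scaled ITGA6 (log2 CPM minus the control mean) was -0.371 and -0.225 in melatonin replicates 1 and 3. It was -0.199 and -0.055 in melatonin replicates 2 and 4. The FPKM split was seen in the values, and its source was not tested. With the replicate block 5 genes were higher, 0 were lower, and ITGB7 was 0.0504.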
